A study of Mus musculus with 12 samples.

Results

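The genes described here are Trp53 and 9 genes that act with it in growth arrest: Mdm2, Ppm1d, Ccng1, Plk2, Plk3, Btg2, Gadd45a, Gadd45b and Gadd45g. Members were the probe sets whose single gene symbol in the platform annotation was 1 of these 10 names. The rule found 18 of 45037 probe sets, for 9 of the 10 genes. No probe set was listed with Trp53 as its single symbol, so Trp53 itself was not analysed here. Expression was measured on 12 Affymetrix MOE430 v2 arrays in TSC2-/- mouse embryonic fibroblasts (MEFs), cells that lack a restraint on the growth-promoting kinase mTOR. The cells grew in DMEM with 10% CCS, and each of the 4 groups had 3 arrays, called biological triplicates in the design text. One experiment set cells given 20 nM rapamycin, an mTOR inhibitor, for 14 h against cells given the vehicle DMSO for 14 h. The other set cells infected with adenovirus carrying PGC-1alpha, a coactivator known for raising mitochondrial genes, against cells infected with adenovirus carrying GFP. These cells were infected at confluence for 10 h and harvested 14 h after the medium was changed. All 4 groups lack Tsc2, and no wild-type cells were analysed here. Tsc2-null fibroblast lines have often been kept in a Trp53-null background. The labels name only the Tsc2 deletion, and they do not say whether the cells carried working p53.

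The p53 protein is a transcription factor that stress signals stabilise. Mdm2 is the ubiquitin ligase that marks p53 for destruction, and its gene is itself a p53 target, which closes a feedback loop. Ppm1d (Wip1) is a phosphatase that removes stress marks from p53 and its kinases, and cyclin G1, the product of Ccng1, recruits the phosphatase PP2A to Mdm2. Btg2 slows proliferation and binds the CCR4-NOT deadenylase complex, and Plk2 and Plk3 are polo-like kinases induced by stress. The Gadd45 proteins are small stress-induced proteins that bind PCNA, the Cdk1 kinase with cyclin B1 and the kinase Map3k4.

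Rapamycin changed 5 of the 9 measured genes at the brightest probe set of each, each by 1.13-fold to 1.17-fold: Mdm2, Ccng1, Plk3 and Btg2 were lower and Plk2 was higher. The 3 Gadd45 genes and Ppm1d did not pass the threshold. At an adjusted p under 0.05 (limma, Benjamini-Hochberg over 45037 probe sets), 6 of the 18 member probe sets were lower and 1 was higher, and 11 were not called. Across the array, 25.5% of all probe sets passed, 14% lower and 11.5% higher. By brightest probe set, 29.3% of 18193 genes passed, 18% lower and 11.3% higher. The median log2 change was -0.15 over the 18 member probe sets and near 0 over all probe sets, whose quartiles were -0.09 and 0.08. Rapamycin and vehicle arrays did not overlap at 9 of the 18 member probe sets, against 37.9% of all probe sets, and at 5 of the 9 genes by brightest probe set, against 42.1% of all genes.

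PGC-1alpha changed none of the 18 member probe sets past the threshold (limma), against 1.95% of all probe sets (0.997% higher and 0.955% lower). By brightest probe set, 0 of the 9 genes passed, against 2.01% of all genes. The median log2 change of the 18 probe sets was 0.08. An unadjusted p under 0.05 was found at 3 of the 18, against 11.6% of all probe sets, and at 0 of the 9 genes by brightest probe set. These 3 were Ppm1d 1449092_at, Ccng1 1450016_at and Ccng1 1450017_at, all higher with PGC-1alpha. The PGC-1alpha and GFP arrays did not overlap at 5 of the 18 member probe sets, against 15.7% of all. GFP replicate 3 stood apart: the SD of its log2 differences from the other two GFP arrays was 0.155 and 0.167, against 0.109 between those. Without GFP replicate 3, 2 of the 18 member probe sets passed as higher with PGC-1alpha, Ppm1d 1449092_at and Btg2 1416250_at, while the share of all probe sets called higher was 4.35%, against 0.997% with every array.

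**Figure D1:**
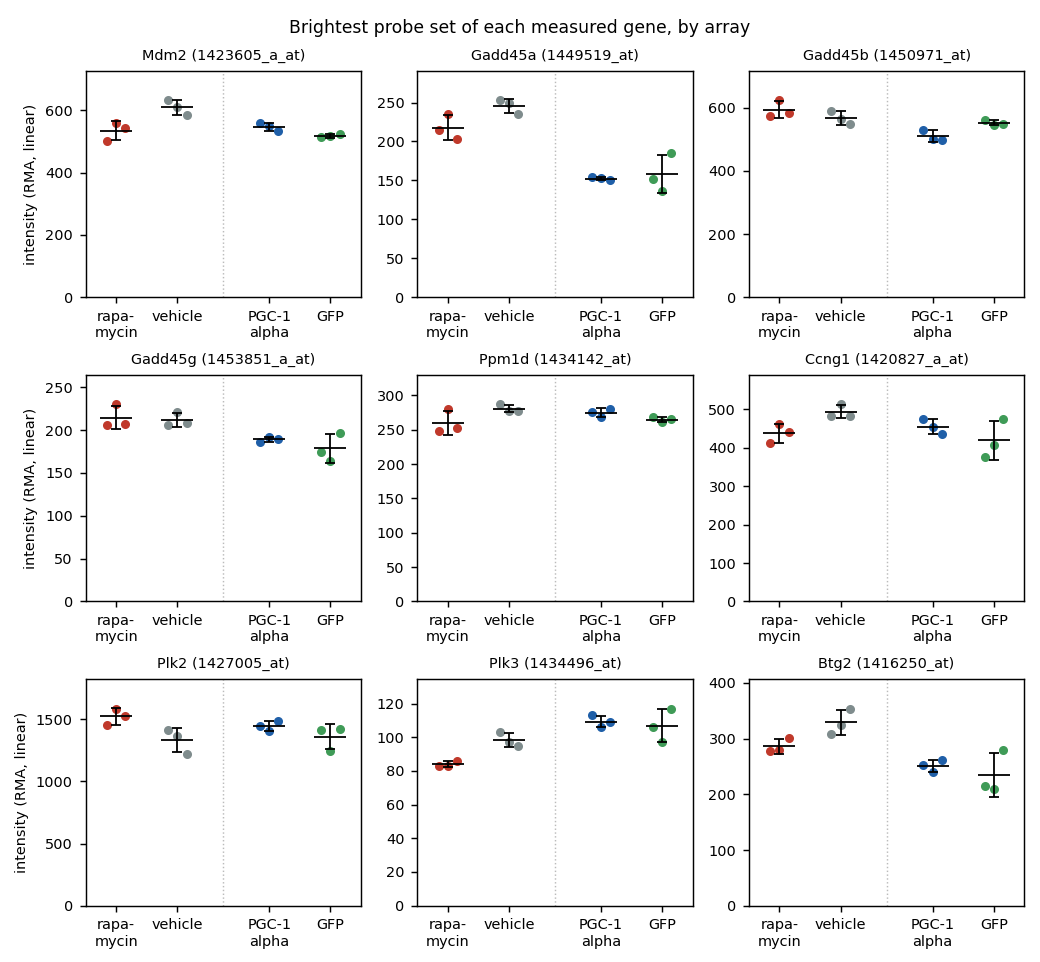
Intensity of the brightest probe set of each of the 9 measured genes (axis in linear intensity units), 1 point per array, with group means and SD (n = 3). Rapamycin and vehicle arrays do not overlap for Mdm2, Ccng1, Plk2, Plk3 and Btg2, and the other 4 genes overlap.

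**Figure D2:**
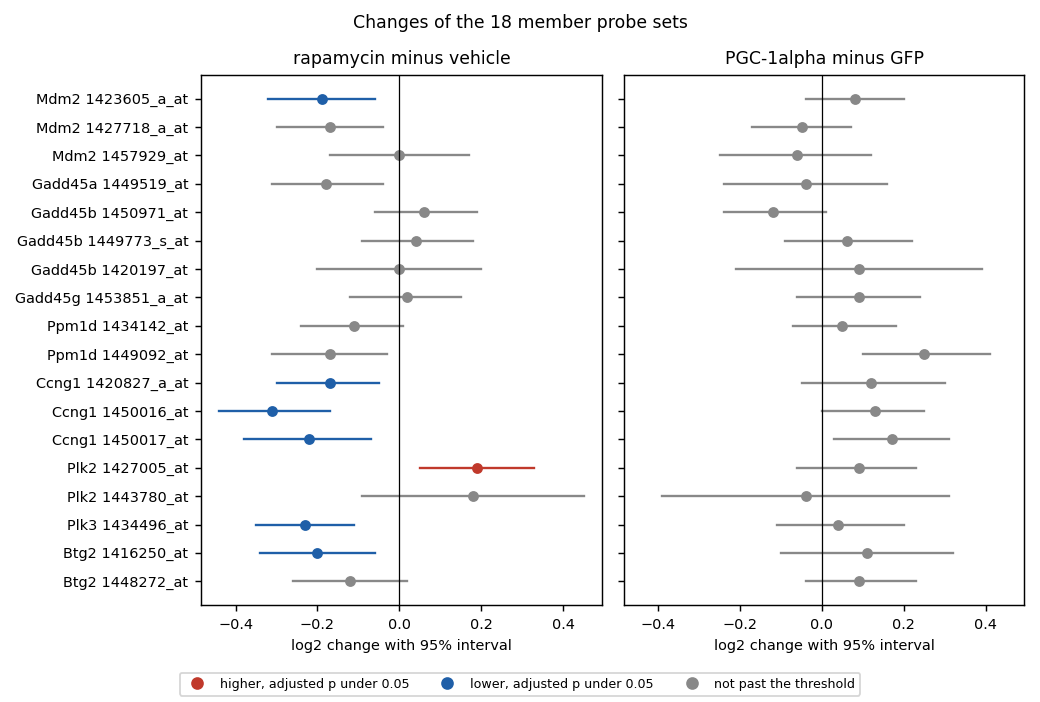
Log2 change of each of the 18 member probe sets with its 95% interval from limma, for rapamycin minus vehicle (left) and PGC-1alpha minus GFP (right). Coloured points passed an adjusted p of 0.05: 6 lower and 1 higher with rapamycin, and 0 with PGC-1alpha.

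Mdm2 has 3 probe sets. At 1423605_a_at its intensity was 501, 559 and 543 in rapamycin arrays, against 632, 610 and 584 in vehicle arrays. Every rapamycin array lay below every vehicle array. The change was -0.19 on the log2 scale (SE 0.06, adjusted p = 0.033 by limma), with means of 534 ± 30 under rapamycin and 609 ± 23.8 under vehicle (SD, n = 3 each). A second probe set, 1427718_a_at, read 340, 380 and 352 with rapamycin and 414, 405 and 385 with vehicle, again without overlap, but its change of -0.17 missed the threshold (limma adjusted p = 0.056). It passed under 6 of 13 alternatives, with adjusted p-values from 0.001 with spike scaling to 0.047 with trend and robust eBayes, 1 of them without rapamycin replicate 2 (-0.21, 0.019). The third, 1457929_at, was dim at 24.1 to 29.9 over these 6 arrays and its change was 0.00. The call at 1423605_a_at was lost without rapamycin replicate 1 (adjusted p = 0.128) or 3 (0.066) and without vehicle replicate 1 (0.135) or 2 (0.086). With PGC-1alpha, 1423605_a_at read 558, 548 and 533, against 513, 517 and 525 with GFP, a change of 0.08 that did not pass (95% interval -0.04 to 0.20).

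Ppm1d has 2 probe sets, and neither passed under rapamycin. At 1434142_at the intensity was 248, 280 and 253 with rapamycin and 287, 278 and 278 with vehicle, and the groups overlapped. At 1449092_at it was 132, 112 and 122 with rapamycin and 140, 134 and 138 with vehicle. These groups did not overlap, and the change of -0.17 (95% interval -0.31 to -0.03) had a limma adjusted p of 0.066. It passed without rapamycin replicate 1 (-0.23, adjusted p = 0.020), with a filter to probe sets above the median level (0.036) and with spike scaling (0.004). The change at 1434142_at was -0.11 with all arrays and passed without rapamycin replicate 2 (-0.17, adjusted p = 0.041) and with spike scaling (0.005). With PGC-1alpha, 1449092_at read 134, 148 and 130, against 117, 107 and 122 with GFP, and each PGC-1alpha array lay above each GFP array. That change was 0.25 (SE 0.07, limma adjusted p = 0.106), and it passed without GFP replicate 3, at 0.29 (adjusted p = 0.030).

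Ccng1 was lower with rapamycin at all 3 of its probe sets. At 1450016_at the intensity was 416, 455 and 471 with rapamycin, against 552, 577 and 529 with vehicle. The rapamycin arrays were all below the vehicle arrays, and the change of -0.31 (SE 0.06, limma adjusted p = 0.002) was the furthest below 0 of the 18. At 1450017_at the values were 215, 255 and 245 with rapamycin and 263, 295 and 276 with vehicle, and at 1420827_a_at, the brightest, 412, 461 and 440 with rapamycin and 484, 513 and 483 with vehicle. These changes were -0.22 (limma adjusted p = 0.033) and -0.17 (0.047), both without overlap. Probe sets of 1 gene share its RNA and are not replicates. The call at 1450016_at held under each of 13 alternative settings, while 1450017_at was lost without rapamycin replicate 1 (0.138) or 3 (0.051) or vehicle replicate 2 (0.136) or 3 (0.067). At 1420827_a_at the call was lost without rapamycin replicate 1 (0.170) or 3 (0.102) or vehicle replicate 1 (0.087), 2 (0.169) or 3 (0.067).

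With PGC-1alpha, Ccng1 1450016_at read 401, 382 and 408, against 359, 362 and 371 with GFP, and 1450017_at read 214, 236 and 242, against 199, 204 and 212. Neither pair of groups overlapped. The changes were 0.13 (limma adjusted p = 0.424) and 0.17 (adjusted p = 0.295), and neither passed the threshold.

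Plk3 has a single probe set, 1434496_at, which read 82.9, 83.0 and 86.0 with rapamycin, against 103, 97.1 and 94.7 with vehicle. The groups were apart, with means of 83.9 ± 1.74 under rapamycin and 98.3 ± 4.28 under vehicle (SD, n = 3 each). The fall was -0.23 on the log2 scale (SE 0.06, limma adjusted p = 0.008), and it too stayed past the threshold under each of the 13 alternatives. With PGC-1alpha it read 113, 106 and 109, against 106, 97.3 and 117 with GFP, and these groups overlapped.

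Plk2 went the other way under rapamycin. At 1427005_at the intensity was 1453, 1587 and 1531 with rapamycin, against 1414, 1367 and 1222 with vehicle, without overlap. The change was 0.19 (SE 0.07, limma adjusted p = 0.044), and the means were 1524 ± 67.6 under rapamycin and 1334 ± 100 under vehicle (SD, n = 3 each). The call was lost without rapamycin replicate 2 (0.119) or 3 (0.111) and without vehicle replicate 2 (0.069) or 3 (0.184). Scaled on the hybridization spike controls, the change was 0.00 (adjusted p = 0.964). The second probe set, 1443780_at, read 95, 59.9 and 67.0 with rapamycin and 61.1, 63.5 and 67.7 with vehicle, where rapamycin replicate 1 was the high array and the change did not pass (limma adjusted p = 0.363). With PGC-1alpha, 1427005_at read 1450, 1403 and 1484, against 1417, 1242 and 1423 with GFP, and the groups overlapped.

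Btg2 has 2 probe sets. At 1416250_at the intensity was 277, 280 and 302 with rapamycin, against 309, 325 and 354 with vehicle, and no array crossed. The change was -0.20 (SE 0.06, limma adjusted p = 0.035). At 1448272_at the values were 127, 136 and 116 with rapamycin and 131, 139 and 142 with vehicle, with overlap, and the change of -0.12 did not pass (limma adjusted p = 0.210). The call at 1416250_at was lost without rapamycin replicate 1 (0.111) or 2 (0.083) and without vehicle replicate 2 (0.074) or 3 (0.146). With PGC-1alpha, 1416250_at read 253, 240 and 261, against 215, 210 and 280 with GFP, where GFP replicate 3 was the highest of the 6 arrays. The change was 0.11 with all arrays (limma adjusted p = 0.773) and 0.24 without GFP replicate 3 (adjusted p = 0.031).

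Quantile normalization over all 12 arrays ended 4 of the 7 rapamycin calls: Mdm2 1423605_a_at (limma adjusted p = 0.159), Ccng1 1420827_a_at (0.153), Ccng1 1450017_at (0.054) and Btg2 1416250_at (0.108). One fit on all 12 arrays ended those at Ccng1 1420827_a_at (0.101) and Btg2 1416250_at (0.111). Scaled on the spike controls, which put the median change of all probe sets at -0.19, 11 of the 18 member probe sets were lower and 0 higher, against 41.2% of all probe sets lower and 3.22% higher.

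None of the 5 probe sets of the Gadd45 genes passed the threshold in either comparison. Gadd45a 1449519_at read 215, 235 and 203 with rapamycin, against 253, 249 and 235 with vehicle. The highest rapamycin array met the lowest vehicle array, and the change of -0.18 had a 95% interval of -0.31 to -0.04 and a limma adjusted p of 0.062. Without rapamycin replicate 2 that change was -0.23 and passed (adjusted p = 0.014), as it did with spike scaling (-0.36, adjusted p = 0.001) and with the filter on level (0.033). With PGC-1alpha, Gadd45a read 154, 153 and 150, against 152, 137 and 185 with GFP, and the change of -0.04 did not pass.

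Gadd45b 1450971_at read 574, 624 and 583 with rapamycin and 590, 566 and 548 with vehicle, a change of 0.06 (95% interval -0.06 to 0.19). After quantile normalization over 12 arrays it was 0.15 and passed (limma adjusted p = 0.042). With PGC-1alpha it read 531, 501 and 497, all below the GFP values of 561, 546 and 549, and the change of -0.12 did not pass (limma adjusted p = 0.479). Its other probe sets, 1449773_s_at and 1420197_at, changed by 0.04 and 0.00 with rapamycin and by 0.06 and 0.09 with PGC-1alpha, all with overlapping groups. Gadd45g 1453851_a_at read 206, 230 and 207 with rapamycin and 206, 221 and 208 with vehicle, a change of 0.02 (95% interval -0.12 to 0.15). With PGC-1alpha it read 186, 192 and 190, against 175, 164 and 197 with GFP, and these groups overlapped.

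The upstream sequences of the 5 genes called at their brightest probe set are shown because 4 moved down and Plk2 moved up under rapamycin. Each is the 250 bases before the RefSeq start site in GRCm38.p6, written 5′ to 3′ on the gene's strand. They lie at chr10:117710759-117711008 for Mdm2, chr11:40755287-40755536 for Ccng1, chr4:117133964-117134213 for Plk3 and chr1:134079156-134079405 for Btg2, all on the minus strand, and at chr13:110394794-110395043 for Plk2, on the plus strand. Capitals mark matches to the p53 half-site, to TGACGTCA (the cyclic AMP response element) and to its core TGACG.
Mdm2: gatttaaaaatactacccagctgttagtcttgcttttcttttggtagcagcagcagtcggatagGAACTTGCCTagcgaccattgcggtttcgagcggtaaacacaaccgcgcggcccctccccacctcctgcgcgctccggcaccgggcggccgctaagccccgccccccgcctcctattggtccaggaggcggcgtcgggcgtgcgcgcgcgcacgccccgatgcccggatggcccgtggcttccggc
Ccng1: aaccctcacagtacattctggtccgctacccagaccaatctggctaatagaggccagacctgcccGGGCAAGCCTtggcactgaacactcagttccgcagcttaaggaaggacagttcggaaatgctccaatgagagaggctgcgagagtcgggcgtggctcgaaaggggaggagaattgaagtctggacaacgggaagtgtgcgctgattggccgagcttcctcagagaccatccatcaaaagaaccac
Plk3: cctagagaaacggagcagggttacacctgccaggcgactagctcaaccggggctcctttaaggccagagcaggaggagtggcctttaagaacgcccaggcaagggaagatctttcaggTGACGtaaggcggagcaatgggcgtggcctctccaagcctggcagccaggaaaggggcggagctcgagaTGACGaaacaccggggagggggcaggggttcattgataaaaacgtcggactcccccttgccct
Btg2: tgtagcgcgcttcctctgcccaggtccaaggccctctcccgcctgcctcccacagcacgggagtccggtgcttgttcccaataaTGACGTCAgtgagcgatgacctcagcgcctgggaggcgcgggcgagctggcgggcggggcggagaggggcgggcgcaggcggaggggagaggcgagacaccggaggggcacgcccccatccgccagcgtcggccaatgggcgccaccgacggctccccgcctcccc
Plk2: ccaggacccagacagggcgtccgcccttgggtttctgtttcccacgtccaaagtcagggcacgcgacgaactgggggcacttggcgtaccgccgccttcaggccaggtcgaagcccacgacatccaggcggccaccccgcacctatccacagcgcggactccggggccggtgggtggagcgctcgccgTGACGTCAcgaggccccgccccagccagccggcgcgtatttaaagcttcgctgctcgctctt

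Both strands of such windows were searched for 10 motifs. The p53 half-site matched in 5 of the 10 genes (Trp53, Mdm2, Gadd45a, Ppm1d and Ccng1), against 7.13% of 32851 windows of the same length. In Mdm2 the match is GAACTTGCCT, from -186 to -177 counted from the base before the start site as -1, and in Ccng1 it is GGGCAAGCCT, from -185 to -176. TGACGTCA matched in 3 genes (Ppm1d, Plk2 and Btg2), against 1.55% of windows. TGACG, which lies inside TGACGTCA, matched in these and in Plk3, against 17.8% of windows. Letters of the YY1 core AAGATGG and of the site AAGGTCA, known for estrogen-related receptors, were found in none of the 10 windows, against 4.49% and 4.08% of all. Of the common promoter motifs, CCAAT matched in 8 of the 10 genes (33.8% of windows), the GC box GGGCGG in 7 (32.7%) and TATAAA in 3 (12.4%). The E-box CACGTG matched in 2 (6.02%) and the FOXO site GTAAACA in 1, Mdm2 (3.17%). A match describes letters only. Of the 5 genes called, Mdm2 and Ccng1 hold the half-site and were lower, and Plk3 and Btg2 lack it and were also lower. Gadd45a and Ppm1d hold the half-site and were not called at their brightest probe set. TGACGTCA is found in both Btg2, which was lower, and Plk2, which was higher.

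The change with rapamycin was set against the change with PGC-1alpha in 1 limma fit of 4 group means. The difference between the effects was below 0 and passed at 5 of the 18 member probe sets, against 20.7% of all probe sets (12% lower and 8.7% higher). By brightest probe set it passed for 2 of the 9 genes, both below 0, against 24.1% of all genes (16.5% lower). It was -0.43 at Ccng1 1450016_at (SE 0.08, limma adjusted p = 7.7e-04), -0.43 at Ppm1d 1449092_at (SE 0.10, adjusted p = 0.003) and -0.39 at Ccng1 1450017_at (SE 0.10, adjusted p = 0.007). These 3 stayed past the threshold under each of 15 alternatives. Mdm2 1423605_a_at (-0.27, limma adjusted p = 0.022) and Plk3 (-0.27, adjusted p = 0.042) also passed. The Mdm2 difference was lost without PGC-1alpha replicate 1 (0.055), rapamycin replicate 1 (0.070) or vehicle replicate 1 (0.066), and with quantile normalization over 12 arrays (0.200). The Plk3 difference was lost without any 1 of 9 arrays, with adjusted p-values from 0.055 to 0.121. Without GFP replicate 3 the difference also passed at Ccng1 1420827_a_at (-0.39, adjusted p = 0.003) and Btg2 1416250_at (-0.44, 0.001). Without rapamycin replicate 2 it also passed at Ccng1 1420827_a_at (-0.34, 0.036), Btg2 1448272_at (-0.27, 0.038) and Ppm1d 1434142_at (-0.22, 0.047). Plk2 1427005_at did not pass (0.10, 95% interval -0.10 to 0.30), nor did any Gadd45 probe set, though Gadd45b 1450971_at did after quantile normalization over 12 arrays (0.31, adjusted p = 0.006).

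Other genes of the p53 pathway, relatives of the members and other stress genes were taken from lists, by brightest probe set. These lists were chosen with earlier results of these data known. The array-wide share for these counts is the 29.3% of all genes called with rapamycin, 18% lower and 11.3% higher, with a median of -0.01. Of 20 measured regulators of p53, 6 fell with rapamycin and 0 rose, with a median log2 change of -0.07. Chek1, a checkpoint kinase of the replication response, read 145, 167 and 166 with rapamycin and 250, 279 and 253 with vehicle. Its change was -0.71 (limma adjusted p = 6.7e-06), and 3 of its 5 probe sets were called lower. Usp7, which removes ubiquitin from Mdm2 and p53, changed by -0.40, and the DNA damage kinases Chek2 and Atm by -0.38 and -0.35. Mdm4, the Mdm2 relative that represses p53, changed by -0.05 and Cdkn2a, whose ARF product blocks Mdm2, by 0.13, and neither passed; both were chosen after their values were seen.

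Of 21 other p53 targets of arrest, repair and metabolism, 10 fell and 4 rose (median -0.10). Trp53inp1, a p53 target that promotes its stress response, read 210, 241 and 225 with rapamycin and 133, 135 and 145 with vehicle, a change of 0.71 (limma adjusted p = 3.6e-06). Gtse1, which restrains p53 in G2, changed by -0.49, Sesn2, a stress-induced inhibitor of mTOR signalling, by -0.45, and Tigar, a regulator of sugar metabolism, by -0.42. Cdkn1a, the p21 cell cycle inhibitor, read 139, 124 and 128 with rapamycin and 158, 165 and 159 with vehicle, a change of -0.31 (limma adjusted p = 0.002) at 1 of its 2 probe sets; it was chosen after its values were seen. Of 10 cell death targets, 4 fell and 1 rose. The nuclease Aen changed by -0.67, the death receptor Fas by 0.39, the death receptor Tnfrsf10b by -0.35 and the BH3 protein Pmaip1 (Noxa) by -0.30, all past the threshold. The Fas call was lost with spike scaling (0.20, adjusted p = 0.056), and that of Tnfrsf10b without rapamycin replicate 2 (0.066) or vehicle replicate 1 (0.068).

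Of 10 measured partners of Gadd45 proteins and stress kinases, 8 fell with rapamycin and 0 rose by brightest probe set (median -0.26). Other probe sets of 2 stress kinases went both ways. Mapk8, not called at its brightest, was higher at 2 of its 5 probe sets and lower at 1. Mapk9, counted as lower, was higher at 1 of its 3 and lower at 1. Pcna, the sliding clamp of DNA replication, read 4111, 4561 and 4436 with rapamycin and 6926, 7064 and 6885 with vehicle, a change of -0.67 (limma adjusted p = 2.4e-06). Cdk1, the kinase that drives mitosis, changed by -0.56, and the p38 activating kinases Map2k3 and Map2k6 by -0.34 and -0.30. Pcna and Cdk1, whose proteins bind Gadd45, were called lower, while the Gadd45 probe sets did not pass. Gadd45a 1449519_at was at -0.18 (limma adjusted p = 0.062), and a difference between these genes was not tested. With spike scaling, 10 of these 10 genes fell, 15 of 20 regulators fell, and of the 21 arrest, repair and metabolism targets 14 fell and 1 rose. That setting called 41.2% of all probe sets lower and 3.22% higher, and its share of all genes was not computed.

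Of 11 measured relatives of the members, 6 fell and 2 rose (median -0.17). Ccng2, the paralog of Ccng1, read 816, 941 and 882 with rapamycin and 547, 540 and 513 with vehicle, a change of 0.72 (limma adjusted p = 2.9e-06), while Ccng1 fell. Plk4, the kinase of centriole duplication, changed by -0.71, the phosphatase Ppm1g by -0.71 and Tob2, an antiproliferative relative of Btg2, by -0.87. Of 7 other growth arrest and DNA damage genes, 4 fell and 2 rose (median -0.41). Ddit4 (REDD1), an inhibitor of mTOR signalling, read 352, 408 and 324 with rapamycin and 1397, 1315 and 1251 with vehicle, a change of -1.88 (limma adjusted p = 2.1e-08). The stress transcription factors Ddit3 and Atf3 changed by -0.64 and -0.56, and Gas6, a ligand of receptor kinases, by 0.46. Ddit3 and Gas6 each passed at 1 of their 2 probe sets.

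With PGC-1alpha, 2 genes of these 6 lists passed by brightest probe set, both higher, against 2.01% of all genes called in either direction. The lists had 20, 21, 10, 10, 11 and 7 measured genes. Gas6 passed at 1 of its 2 probe sets and Tob2 at 1 of its 5. Away from their brightest probe sets, Plk4 and Btg1 were each called lower at 1 of 3. Gas6 read 356, 342 and 344 with PGC-1alpha and 236, 227 and 265 with GFP, a change of 0.52 (limma adjusted p = 0.002). Tob2 read 350, 347 and 349 with PGC-1alpha and 265, 274 and 311 with GFP, a change of 0.30 (limma adjusted p = 0.041). The Tob2 call was lost when any array but GFP replicate 3 was left out (adjusted p from 0.145 to 0.180), with spike scaling (0.095) and with an offset of 16 before log2 (0.059). Without GFP replicate 3, Ak1 (0.29, adjusted p = 0.016), Cdkn2a (0.28, 0.033), Map2k3 (0.32, 0.015) and Mapk14 (0.33, 0.008) also passed as higher. Of all probe sets, 4.35% were called higher in that setting.

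**Figure D3:**
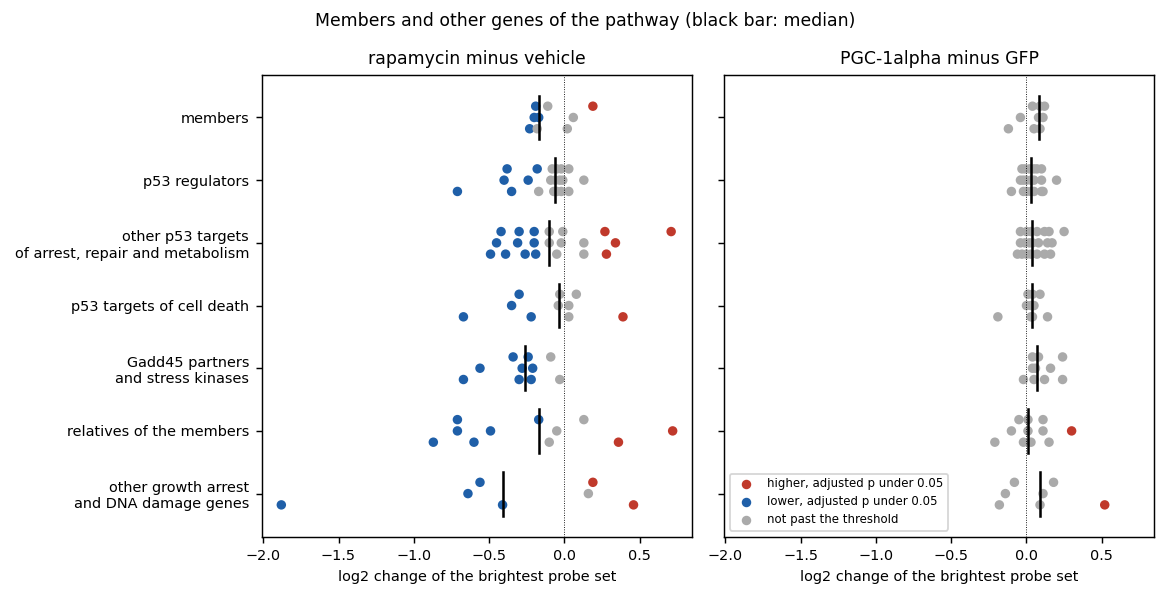
Log2 change of every measured gene of the members and of the 6 lists, by brightest probe set. Panels show rapamycin minus vehicle and PGC-1alpha minus GFP, with 1 point per gene and a bar at each median. Under rapamycin the members lie between -0.23 and 0.19, and the partners of Gadd45 have a median of -0.26.

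Over the 12 arrays, each centred on the mean of its experiment, the 3 genes whose profile was most like that of Mdm2 were Tmem161a, Cyb5r4 and Bin1. Their root mean square log2 differences from it were 0.028, 0.028 and 0.029, against 0.114 for the median gene and 0.084 for Mdm2 against its own mean. For Gadd45a they were Rpp25l (0.043), Hnrnph3 (0.047) and Fip1l1 (0.047), against a median of 0.146.

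The fibroblast markers spanned a wide range of intensity in rapamycin arrays. Col1a1 read 10915 to 12660 and Vim 9251 to 9665, but Pdgfrb read 344 to 357, Thy1 249 to 301 and Twist1 167 to 188. By brightest probe set, 11.3% of all genes were higher with rapamycin and 18% lower. Of 12 fibroblast markers, 6 rose and 0 fell. The summed intensity of the 12 was 60892 to 65425 under rapamycin and 58420 to 59541 under vehicle. Col1a1, Col1a2, Col3a1 and Vim, among the brightest of them, did not pass. With spike scaling, 3 fibroblast markers rose and 3 fell, and no macrophage marker passed, against 3.22% of all probe sets higher and 41.2% lower. Of 5 macrophage markers 2 rose, Cd14 and Cd68, and the summed intensity was 681 to 701 under rapamycin and 613 to 638 under vehicle. In rapamycin arrays Cd14 read 278 to 294, Csf1r 242 to 250, Cd68 61.8 to 73.7, Adgre1 61.0 to 65.1 and Ptprc 26.3 to 27.1. Of 5 epithelial markers 2 rose and 1 fell (2197 to 2277 under rapamycin, 2222 to 2258 under vehicle). Under rapamycin Krt19 read 747 to 843, Epcam 694 to 750, Krt18 565 to 576, Krt8 115 to 125 and Cdh1 37.8 to 39.6. Of 4 endothelial markers 0 passed. With PGC-1alpha none of the 4 marker lists had a member past the threshold by brightest probe set. Prrx1, a fibroblast marker, was called lower at 1 of its 6 probe sets. In a population of cells, fewer cells of a type and less RNA per cell cannot be told apart.

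Array medians lay between 77.49 and 81.04. The 3′/5′ ratio of the Gapdh control was 0.807 to 0.826 under rapamycin and 0.84 to 0.861 under vehicle, without overlap. PGC-1alpha arrays had 0.894 to 0.905, against 0.865 to 0.879 in GFP arrays, also apart. The mean log2 spike signal was 10.625 to 10.829 under rapamycin and 10.497 to 10.596 under vehicle, also without overlap. PGC-1alpha arrays had 10.21 to 10.507, against 10.386 to 10.674 in GFP arrays. Results scaled on the spike signal are given with the alternative settings. The cause of the spike difference and the part of the 3′/5′ ratio in the results were not tested.

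**Figure D4:**
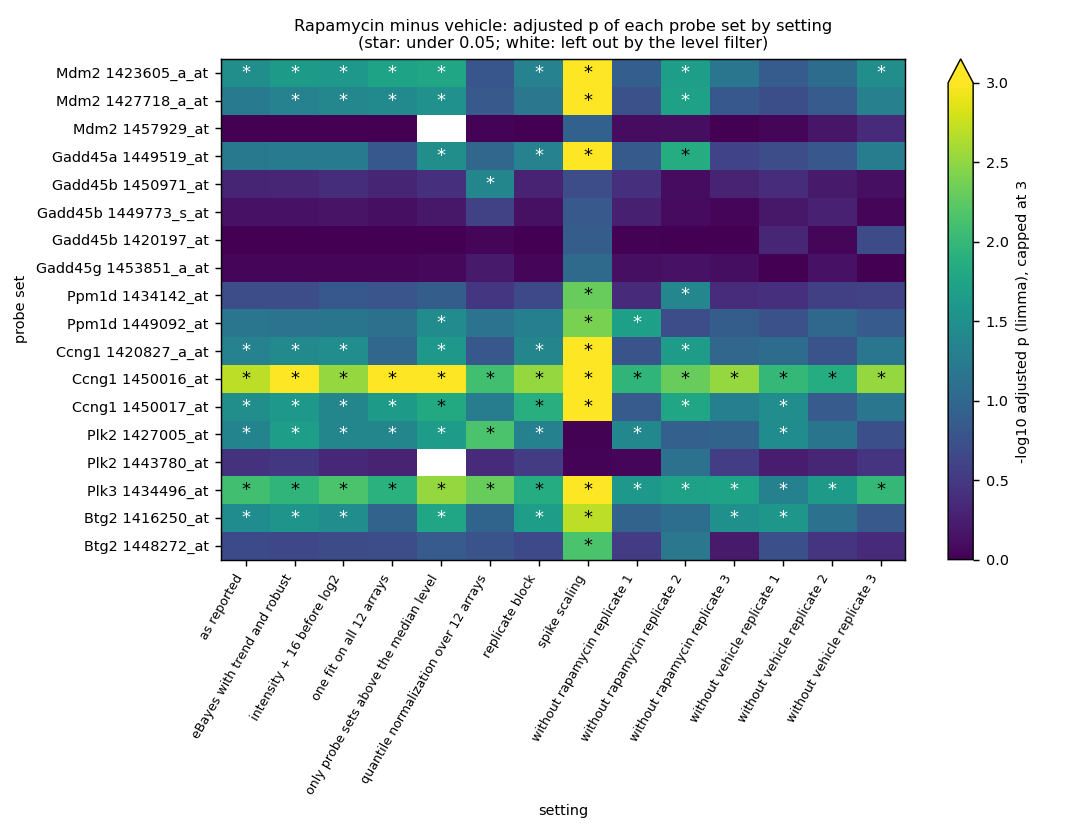
Adjusted p (limma) of each of the 18 member probe sets for rapamycin minus vehicle under the reported setting and 13 alternatives, as -log10, with a star under 0.05. Ccng1 1450016_at and Plk3 carry a star in every column, and the other calls lose theirs in several.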

How the data were processed

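RNA of 12 samples was hybridized to 1-colour arrays. Per the series design, the deposited intensity values were made by the authors with RMA (background correction, quantile normalization, probe summary) in BioConductor 1.2, in 1 run per experiment; the scale is not stated, and values from 9.299 to 21072.4 were read as linear intensity and turned into log2 here. Quantile normalization makes changes relative to the other probe sets, so levels were compared only within an experiment. After removal of 64 Affymetrix controls, all 45037 probe sets entered the tests. Each comparison was fitted on its 6 arrays with limma 3.58.1 (lmFit, eBayes) in R 4.3.3, two-sided. P-values measure the spread between arrays, whose number limits precision. Detection calls were not applied, and dim signals may be background.

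Symbols came from the platform annotation, where 34945 probe sets had 1 symbol, 932 several and 9160 none listed, and were updated through a RefSeq table that held the Entrez IDs of 34741. A gene was represented by its brightest probe set (mean log2 over 12 arrays). All members were named; of each list, up to 4 genes past the threshold with the largest change and the largest opposite one, or the 2 with the smallest p. The members and lists were chosen with earlier results of these data known. Replicate numbers were not shown to pair the arrays, so no block was used in the reported fits. Correlations of deviations between arrays of the same number were -0.052, 0.072 and 0.005 for rapamycin and -0.133, 0.231 and -0.011 for PGC-1alpha. With 3 arrays per group they cannot exclude pairing. On simulated data over 45037 probe sets, 50 were given each size of change. The rapamycin fit recovered 24% of changes of 0.3 and 84% of changes of 0.6, and the PGC-1alpha fit 16% and 88%. In the rapamycin data 25.5% of probe sets were called. The adjusted threshold depends on the share changed, so the simulation does not give the recovery in that comparison. Alternatives were an offset of 16, trend with robust eBayes, a level filter, 1 fit on 12 arrays, quantile normalization over 12 arrays, scaling on 18 spike control probe sets, a replicate block and leaving out each array. Tables and figures were made in Python 3.11.15 (pandas 2.3.3, matplotlib 3.10.9).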

Additional observations from a re-analysis of the deposited data

How the results depend on the processing

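Spike scaling shifted all rapamycin changes by -0.19 (median over all probe sets) and PGC-1alpha changes by 0.16. It gave 1448 higher and 18556 lower probe sets for rapamycin, where 7.2% of calls were higher against 45.1% as reported; for PGC-1alpha it gave 296 and 29, 91.1% higher against 51.1%, and for the difference between effects 418 and 16701. For rapamycin, member probe sets then numbered 0 higher and 11 lower, against 3.22% and 41.2% of all probe sets, and member genes 0 higher. For the difference, 13 member probe sets were lower, against 37.1% of all probe sets, and 7 member genes were lower. Shares of all genes were not computed for the alternative settings, so gene counts here have no like share. Quantile normalization over 12 arrays gave 2 higher and 2 lower member probe sets and 2 higher and 1 lower genes for rapamycin. Of all probe sets, 13.3% were then higher and 13.2% lower. For the difference it gave 1 higher probe set, 1 higher gene and 1 lower gene, against 10.8% of all probe sets higher and 11.2% lower. One fit on all 12 arrays gave 5 lower member probe sets for rapamycin, against 13.7% of all probe sets lower, and 2 lower member genes. For PGC-1alpha it gave 807 higher and 678 lower probe sets, and an offset of 16 gave 295 higher. With a replicate block, rapamycin gave 1 higher and 7 lower member probe sets, against 11.4% and 13.9% of all probe sets. The probe set gained was Gadd45a 1449519_at (-0.18, limma adjusted p = 0.047). The replicate numbers are not shown to pair arrays.

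Leaving out 1 array gave, for rapamycin, 0 to 1 higher and 2 to 8 lower member probe sets. Member genes numbered 0 to 1 higher and 1 to 5 lower. Of all probe sets, 8.76% to 11.1% were then higher and 11.4% to 14.9% lower. For PGC-1alpha there were 0 to 2 higher member probe sets and 0 to 1 higher genes. Over the array, 113 to 1957 probe sets were then higher and 166 to 880 lower. For the difference, 3 to 7 member probe sets and 0 to 4 genes were lower, against 10.1% to 14.4% of all probe sets. Of the 7 rapamycin calls, 2 to 5 stayed. Changes that turned direction were not called as reported or there, and the cause was not tested. With spike scaling, for rapamycin, Gadd45b 1450971_at was -0.12, Gadd45b 1449773_s_at -0.15, Gadd45g -0.17 and Plk2 1443780_at -0.01; for PGC-1alpha, Mdm2 1427718_a_at was 0.12, Mdm2 1457929_at 0.10, Gadd45a 0.13, Gadd45b 1450971_at 0.05 and Plk2 1443780_at 0.13; for the difference, Mdm2 1457929_at was -0.29, Gadd45b 1450971_at -0.18, Plk2 1427005_at -0.25 and Plk2 1443780_at -0.14. Quantile normalization turned the difference at Gadd45b 1449773_s_at to 0.05. Leaving out 1 array gave ranges across 0 for rapamycin at Gadd45b 1449773_s_at (-0.02 to 0.08), Gadd45g (-0.04 to 0.05) and Plk2 1443780_at (-0.02 to 0.32); for PGC-1alpha at Mdm2 1457929_at (-0.14 to 0.02), Gadd45a (-0.14 to 0.08), Gadd45b 1420197_at (-0.12 to 0.22), Plk2 1443780_at (-0.25 to 0.10) and Plk3 (-0.02 to 0.11); and for the difference at Mdm2 1457929_at (-0.02 to 0.16), Gadd45b 1449773_s_at (-0.09 to 0.03) and Gadd45b 1420197_at (-0.22 to 0.12).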
